A study of Mus musculus with 10 samples.

Results

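The 10 genes described here regulate how many mitochondria a cell builds and how it copies and transcribes mitochondrial DNA. They were taken as a listed set, 10 of the 19271 genes in the deposited table, with the transcripts of each gene summed. They are the coactivator genes Ppargc1a and Ppargc1b, the nuclear transcription factor genes Esrra, Nrf1 and Gabpa, the mitochondrial transcription factor genes Tfam, Tfb1m and Tfb2m, and the polymerase genes Polg and Polrmt. All 10 had reads in every library and passed the filter on low counts. Their RNA was measured by sequencing poly(A)-selected liver RNA of C57BL6/N mice aged 2 months that carried 0, 1 or 2 copies of the S400D mutation of Htra2, which encodes the mitochondrial serine protease HtrA2/Omi and in which S400D puts aspartate in place of a serine. The groups were 3 WT/WT males (wild type), 3 S400D/WT males (heterozygous), 3 S400D/S400D males (homozygous) and 1 S400D/S400D female. The labels give no treatment, litter or time of collection, and do not say how the mutation was introduced.

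Libraries held 16240441 to 17264289 estimated counts. Htra2 itself had 12.3 to 17.3 CPM (counts relative to the library's total) in every library, and its messenger level does not test a point mutation in the protein. The tissue label was checked against fixed markers: 8 hepatocyte markers summed to 80900 to 140000 CPM in the 10 libraries, and 9 markers of fat, pancreas and muscle to 0.241 to 1.6 CPM, with Plin1 and Lep at 0 in all libraries. In whole liver, fewer cells of a type and less RNA per cell cannot be told apart. Levels of 1 gene across libraries are given below in CPM scaled with TMM factors (trimmed mean of M-values), as mean ± SD over 3 animals. Fold changes are log2 values with the standard error (SE) of edgeR's quasi-likelihood fit, and adjusted p-values are Benjamini-Hochberg values over all tested genes, with a threshold of 0.05.

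PGC-1alpha and PGC-1beta, the proteins of Ppargc1a and Ppargc1b, do not bind DNA themselves but are recruited by transcription factors such as the estrogen-related receptor alpha (Esrra), NRF1 and GABP, which bind the promoters of nuclear genes for respiration. Those factors also act on the genes for TFAM, TFB1M and TFB2M. Through TFAM and TFB2M the mitochondrial genome is packaged and transcribed by the RNA polymerase POLRMT, while TFB1M methylates mitochondrial ribosomal RNA. With primers made by POLRMT, the genome is copied by the DNA polymerase gamma (Polg). In liver, PGC-1alpha is known as a fasting-induced coactivator of gluconeogenesis and fatty acid oxidation, and PGC-1beta as a coactivator of lipid synthesis as well as of respiration genes.

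The sequences upstream of the members were read from RefSeq's promoter windows for GRCm38.p6, to show which motifs each gene holds before the values are given. Of the 10 members, 9 had a window, and Ppargc1b had none. The 250 bases before the start site were searched on both strands for 5 motifs: the NRF1 core GCATGCGC, the GABP site CCGGAAGT, the estrogen-related receptor element TCAAGGTCA, the E-box CACGTG and the CRE core TGACG. No motif contains another, and no matches overlapped in the members. Among all 32851 windows of that length, the NRF1 core stood in 2.26%, the GABP site in 2.88%, the receptor element in 0.387%, the E-box in 6.02% and the CRE core in 17.8%. Polrmt and Esrra held the NRF1 core, Polg and Tfam the GABP site, and Ppargc1a, Polg and Tfb1m a CRE core, while the receptor element and the E-box were in 0 members. Excerpts of 30 bases with the match in capitals, 5′ to 3′ on the strand of the gene (the minus strand in each), read as follows. They lie at chr7:79466293-79466322 for Polg, chr10:71238073-71238102 for Tfam, chr10:79746696-79746725 for Polrmt and chr19:6921824-6921853 for Esrra.
Polg, GABP site: gaggacctcacCCGGAAGTccctctgcacc
Tfam, GABP site: cctgccgcggaCCGGAAGTccgggcttccc
Polrmt, NRF1 core (reverse complement): agagtatttctGCGCATGCtctcttgccgc
Esrra, NRF1 core: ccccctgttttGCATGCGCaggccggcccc
The whole 250-base window of Ppargc1a is shown because, of the members, this gene differed most between the carrier genotypes, with its CRE core (as the reverse complement) in capitals, at chr5:51567726-51567975 on the minus strand.
Ppargc1a, upstream window: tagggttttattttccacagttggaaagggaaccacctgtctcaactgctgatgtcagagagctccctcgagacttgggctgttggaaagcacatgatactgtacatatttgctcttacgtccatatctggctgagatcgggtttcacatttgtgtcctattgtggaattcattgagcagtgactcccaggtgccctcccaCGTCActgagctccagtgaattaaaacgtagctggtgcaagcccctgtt
The matches are letters in these windows and were not tested as binding sites.

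To compare genes with each other, the deposited TPM values were used, which are scaled by transcript length. Averaged over the 10 libraries, the order of the levels was Esrra (25.6 TPM), Tfb2m (18.6), Tfam (15.5), Polg (15.1), Gabpa (12.6), Polrmt (10.2), Tfb1m (9.08), Nrf1 (5.29), Ppargc1a (2.6) and Ppargc1b (2.35). Most neighbours in this order kept it in 10 of 10 libraries. The exceptions were Tfam above Polg (7 of 10), Polg above Gabpa (9 of 10), Polrmt above Tfb1m (7 of 10) and Ppargc1a above Ppargc1b (5 of 10). The members thus ranged from a receptor gene at percentile 81.7 of the genes with reads to a pair of coactivator genes at percentiles 44.7 and 43.3. TPM moved the median of all genes by 0.16 (log2) between homozygous and wild-type males and by 0.12 between homozygous and heterozygous males, so genotypes were compared in CPM.

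**Figure D1:**
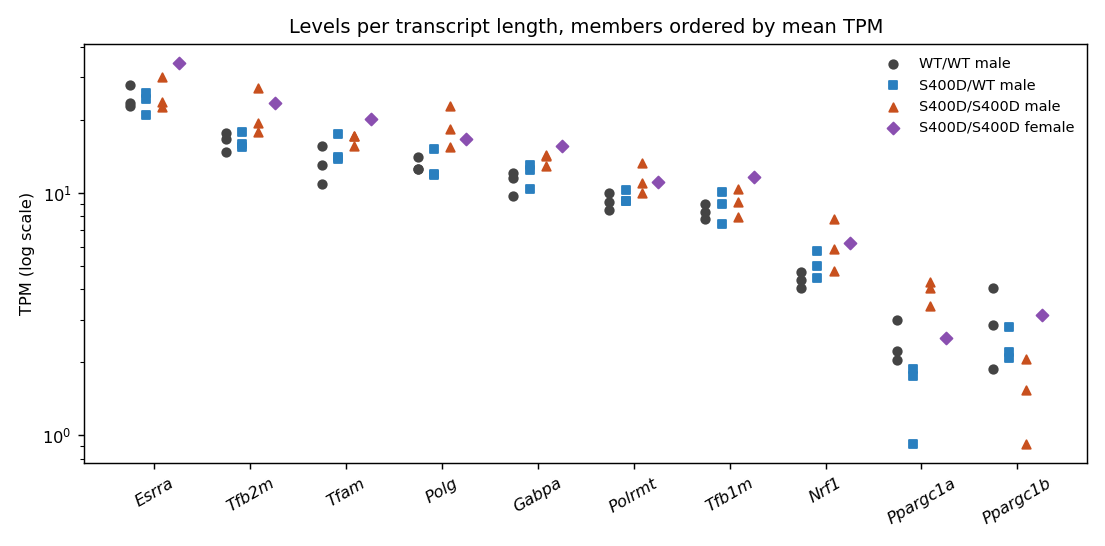
Levels of the 10 members in TPM (log axis), ordered by the mean over libraries, with 1 point per library and 1 colour and shape per genotype and sex. Esrra lies at the top (mean 25.6 TPM) and both coactivator genes at the bottom (2.6 and 2.35 TPM), where the homozygous males are the highest points for Ppargc1a and include the lowest for Ppargc1b.

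Ppargc1a was highest in homozygous males and lowest in heterozygous males. The gene lies on chromosome 5 (51454249 to 52115853, GRCm38.p6). Wild-type males had 12.9, 11.9 and 9.6 CPM, heterozygous males 4.67, 8.68 and 7.55 CPM, and homozygous males 16.9, 14.1 and 19.0 CPM. The 3 ranges do not overlap: every heterozygous male lay below every wild-type male, and every homozygous male above. Homozygous against heterozygous males, the log2 fold change was 1.26 (SE 0.23, 95% interval 0.75 to 1.77, 2.39-fold, adjusted p = 0.104), rank 30 of 12427 genes by p and not past the threshold. Homozygous against wild-type males it was 0.54 (SE 0.22, interval 0.04 to 1.04, adjusted p = 0.302), and heterozygous against wild-type males -0.72 (SE 0.23, interval -1.23 to -0.2, adjusted p = 0.972). DESeq2 called the difference between homozygous and heterozygous males (adjusted p = 0.000127), and edgeR did not with any 1 animal left out (adjusted p 0.0513 to 0.31).

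The reads of Ppargc1a came mainly from the curated RefSeq transcript, which held 88.0% of the gene's estimated counts over all libraries and 68.4% to 100% in single libraries. The lowest level, in heterozygous male 1, rests on 76 reads, for which the exact 95% Poisson interval is 59.9 to 95.1. Such intervals cover counting error only. The heterozygous males averaged 6.97 ± 2.07 CPM (n = 3).

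Ppargc1b went the other way, with its lowest levels in homozygous males. It lies on chromosome 18 (61291445 to 61400756), and the curated transcript held 98.8% of its counts. Wild-type males had 20.6, 16.1 and 30.5 CPM, heterozygous males 17.9, 15.5 and 19.8 CPM, and homozygous males 10.4, 14.0 and 6.63 CPM. Every homozygous male lay below every other male, while the heterozygous and wild-type ranges overlap. The wild-type males were themselves spread widely (22.4 ± 7.35 CPM, n = 3). Homozygous against wild-type males, the log2 fold change was -1.11 (SE 0.29, interval -1.76 to -0.46, adjusted p = 0.206), which edgeR did not call and DESeq2 did (adjusted p = 0.0209). The other differences did not pass with either tool: -0.78 (SE 0.29, adjusted p = 0.228) for homozygous against heterozygous males and -0.33 (SE 0.28, adjusted p = 0.972) for heterozygous against wild-type males. The last value was -0.04 without wild-type male 3 and -0.53 without wild-type male 2.

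**Figure D2:**
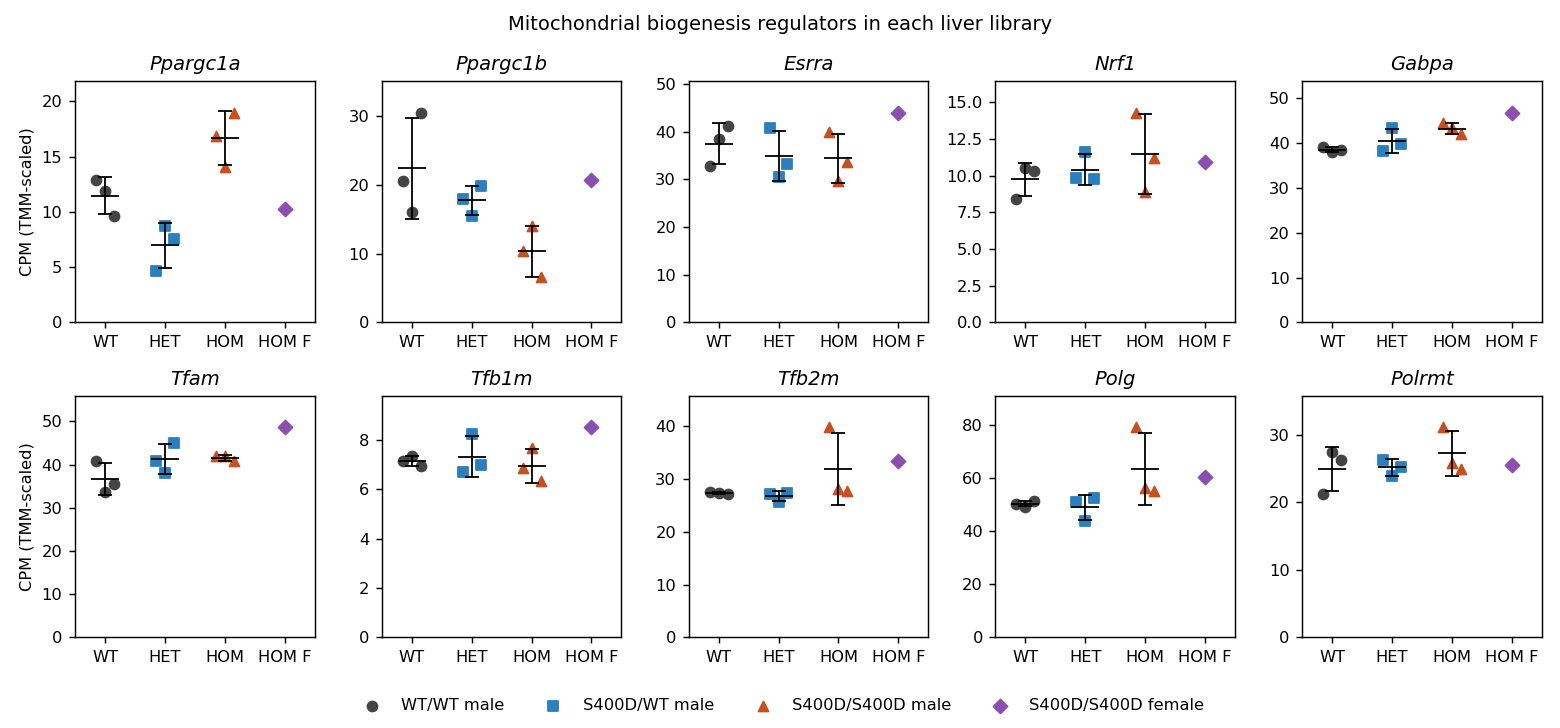
CPM (TMM-scaled, linear axis from 0) of each member in each library, with 1 point per animal and bars for the mean and SD of the 3 males of a genotype; HOM F is the single homozygous female. Ppargc1a separates the 3 male genotypes (4.67 to 8.68, 9.6 to 12.9 and 14.1 to 19.0 CPM), Ppargc1b is lowest in homozygous males (6.63 to 14.0 CPM), and for Tfb2m and Polg 1 homozygous male stands above all other animals.

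Because a ratio inside 1 library does not depend on the scaling between libraries, the TPM of Ppargc1a was divided by that of Ppargc1b. The ratio was 1.05, 1.19 and 0.505 in wild-type males, 0.418, 0.904 and 0.625 in heterozygous males and 2.63, 1.65 and 4.64 in homozygous males. Homozygous males had more Ppargc1a than Ppargc1b in 3 of 3 animals, and their ratios lay above those of all 6 other males. In CPM these males were already the highest for Ppargc1a and the lowest for Ppargc1b. The ratio was therefore bound to separate them, with the smallest possible permutation p, and repeats those observations. On the log2 scale the means were -0.22 ± 0.67, -0.69 ± 0.56 and 1.44 ± 0.75 (SD, n = 3 each). The differences from homozygous males were 1.67 for wild-type and 2.14 for heterozygous males, each with a two-sided exact permutation p = 0.1, the smallest that 3 against 3 can give (0.15 after adjustment over the 3 pairs). Heterozygous and wild-type males differed by -0.47 (exact permutation p = 0.4), within the spread of the animals.

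**Figure D3:**
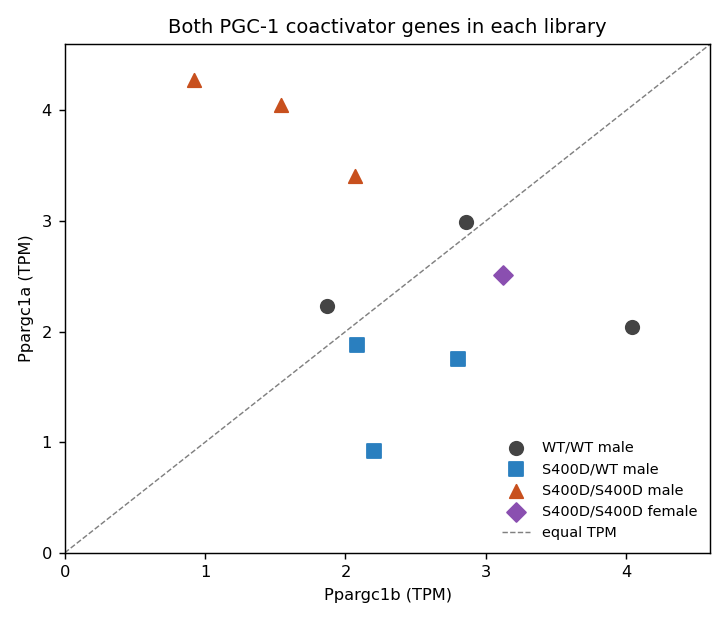
Ppargc1a against Ppargc1b in TPM (linear axes), 1 point per library, with a dashed line where both are equal. The 3 homozygous males lie above the line at ratios of 1.65 to 4.64, the 3 heterozygous males below it at 0.418 to 0.904, and the homozygous female (0.804) lies below it as well.

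Among the transcription factor genes, none passed the test in any comparison of genotypes. Esrra, which encodes an orphan nuclear receptor and partner of both coactivators, lies on chromosome 19 (6910977 to 6922048). It had 32.8, 38.5 and 41.1 CPM in wild-type males, 40.8, 30.5 and 33.3 CPM in heterozygous males, and 39.9, 29.6 and 33.6 CPM in homozygous males. The groups overlap throughout, and homozygous minus wild-type males gave a log2 fold change of -0.12 (SE 0.15, interval -0.45 to 0.21, adjusted p = 0.718). Nrf1, for a factor of respiration gene promoters that is distinct from the stress factor NRF2, lies on chromosome 6 (30047985 to 30153458). It had 8.44, 10.5 and 10.3 CPM, 9.83, 11.6 and 9.8 CPM, and 14.3, 8.9 and 11.2 CPM in the same order of groups. Homozygous male 1 was the highest animal, the other homozygous males lay near the rest, and the log2 fold change was 0.24 (SE 0.18, interval -0.17 to 0.65, adjusted p = 0.55). It was 0.05 without homozygous male 1.

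Gabpa encodes the DNA-binding subunit of GABP and lies on chromosome 16 (84834891 to 84863783). Wild-type males had 39.2, 37.9 and 38.5 CPM, heterozygous males 38.2, 43.3 and 39.8 CPM, and homozygous males 44.4, 43.3 and 41.9 CPM. All homozygous males lay above all wild-type males, and the heterozygous males reached into both ranges. Between homozygous and wild-type males the log2 fold change was small, 0.17 (SE 0.08, interval -0.02 to 0.35, adjusted p = 0.369). Gabpa overlaps Atp5j (up to 226 CPM), Esrra overlaps Trmt112 (up to 33.4 CPM) and Tfb1m overlaps Tiam2 (up to 12.2 CPM). No source names the strand setting of the counting, so reads of these pairs may not be fully separated.

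Of the genes acting on the mitochondrial genome, Tfam, Tfb1m and Polrmt showed overlapping groups between homozygous and wild-type males. Tfam, for the protein that packages mitochondrial DNA and starts its transcription, lies on chromosome 10 (71225468 to 71238328). It had 40.9, 33.7 and 35.5 CPM in wild-type males, 40.7, 38.0 and 44.9 CPM in heterozygous males, and 41.9, 41.9 and 40.7 CPM in homozygous males. Wild-type males 2 and 3 were the lowest and wild-type male 1 lay among the carriers, with a log2 fold change of 0.18 (SE 0.1, interval -0.05 to 0.41, adjusted p = 0.427) for homozygous against wild-type males. Tfb1m encodes a methyltransferase of the mitochondrial ribosomal RNA and lies on chromosome 17 (3519250 to 3557796). It had 7.15, 7.34 and 6.95 CPM, 6.7, 8.26 and 6.99 CPM, and 6.85, 7.67 and 6.33 CPM, and no group stood apart (log2 fold change -0.04, SE 0.14, interval -0.36 to 0.29, adjusted p = 0.924). Polrmt, the mitochondrial RNA polymerase gene on chromosome 10 (79736125 to 79746604), had 21.3, 27.4 and 26.2 CPM, 26.3, 23.9 and 25.3 CPM, and 31.1, 25.8 and 24.9 CPM. Homozygous male 1 was again highest, and the log2 fold change was 0.13 (SE 0.13, interval -0.15 to 0.41, adjusted p = 0.634). Without this animal the value for Polrmt was 0.02.

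In CPM, Tfb2m and Polg were higher in all homozygous males than in any other male, with most of the difference in 1 animal. Neither passed the test. Tfb2m, for the factor that opens mitochondrial promoters with POLRMT, lies on chromosome 1 (179528052 to 179546305). It had 27.6, 27.3 and 27.2 CPM in wild-type males, 27.2, 25.6 and 27.3 CPM in heterozygous males, and 39.8, 28.2 and 27.7 CPM in homozygous males. The last 2 homozygous males lay above the wild-type range by less than counting error. The log2 fold change of 0.22 (SE 0.14, adjusted p = 0.468) was 0.03 without homozygous male 1. In TPM homozygous male 3 (17.79) lay just below heterozygous male 3 (17.81), so the separation of Tfb2m from heterozygous males depends on the scaling. The wild-type males agreed to 0.682% (coefficient of variation), closer than the 4.86% that counting error alone gives at the lowest count of this gene. Polg, the catalytic subunit of the mitochondrial DNA polymerase, lies on chromosome 7 (79446231 to 79467911). It had 50.3, 49.2 and 51.2 CPM in wild-type males, 51.0, 43.6 and 52.3 CPM in heterozygous males, and 79.0, 56.2 and 55.1 CPM in homozygous males. Its log2 fold change was 0.34 (SE 0.14, interval 0.02 to 0.66, adjusted p = 0.316) against wild-type and 0.37 (SE 0.14, interval 0.05 to 0.7, adjusted p = 0.236) against heterozygous males. Without homozygous male 1 these values were 0.15 and 0.19. In log2 CPM over the genes, this library correlated with homozygous males 2 and 3 at Pearson r 0.9397 and 0.9576. Males 2 and 3 correlated with each other at 0.9805.

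**Figure D4:**
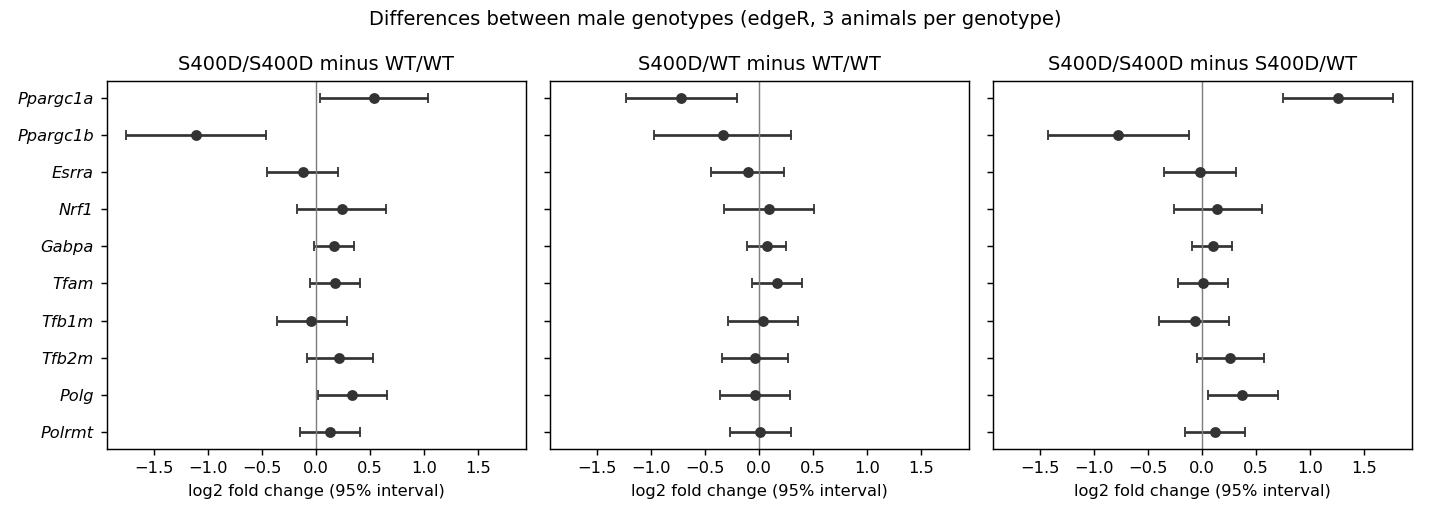
Log2 fold changes of the 10 members between male genotypes, with 95% intervals from the edgeR fit of 3 animals per genotype. The intervals of Ppargc1a and Ppargc1b lie on opposite sides of 0 in both comparisons with homozygous males (0.54 and -1.11 against wild type, 1.26 and -0.78 against heterozygotes), and the estimates of all other members lie between -0.12 and 0.37.

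Counted over the set, 7 members were higher and 3 lower in homozygous than in wild-type males, with a median log2 fold change of 0.17 against 0.0 for all genes. Without homozygous male 1 the median of the members was 0.04. Of the members, 0 were called by edgeR (0.0% of the 12427 genes tested), and 3 had an unadjusted p under 0.05 (14.9% of all genes): Ppargc1a, Ppargc1b and Polg. In CPM the groups did not overlap for 5 members (20.8% of all genes), higher in homozygous males for Ppargc1a, Gabpa, Tfb2m and Polg (9.27% of all genes) and lower for Ppargc1b (11.5%). For Tfb2m the gap (27.7 against 27.6 CPM) was smaller than counting error. The 2 other comparisons share animals with this one. For heterozygous against wild-type males, 5 members were higher and 5 lower (median -0.01, all genes 0.01), edgeR called 0 (0.0% of all genes), and Ppargc1a alone had an unadjusted p under 0.05 (4.19% of all genes) and groups without overlap (10.4%). For homozygous against heterozygous males, 7 were higher and 3 lower (median 0.11, all genes 0.0), edgeR called 0 (0.0%), 3 had an unadjusted p under 0.05 (17.2% of all genes), and 4 did not overlap (22.4%). Limma-voom also called 0 genes in each of these comparisons, and DESeq2 called 308, 6 and 530 in the order given.

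The single homozygous female had 10.3 CPM of Ppargc1a and 20.7 CPM of Ppargc1b, both inside the range of the wild-type males (9.6 to 12.9 and 16.1 to 30.5 CPM) and outside that of the homozygous males. In the fit of all 10 libraries, where the error comes from the males alone, the female was lower by a log2 fold change of -0.69 (SE 0.32, adjusted p = 0.506) for Ppargc1a and higher by 1.0 (SE 0.39, adjusted p = 0.417) for Ppargc1b. Her levels of Esrra (44.0 CPM), Gabpa (46.8 CPM), Tfam (48.6 CPM) and Tfb1m (8.51 CPM) were the highest of the 10 libraries. Nrf1, Tfb2m, Polg and Polrmt lay within the range of the homozygous males, at 10.9, 33.4, 60.4 and 25.5 CPM. Of the members 0 were called, where edgeR called 0.0772% of 12954 genes, and sex cannot be told apart from the animal here.

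Levels of circadian clock genes varied across the same libraries. Arntl, the activator of the clock, had 2.64, 2.45 and 4.25 CPM in wild-type males, 1.17, 31.5 and 2.59 CPM in heterozygous males, 17.4, 26.1 and 38.1 CPM in homozygous males and 1.59 CPM in the female. Dbp, an output gene with the opposite phase, had 128, 148 and 158 CPM, 247, 6.02 and 105 CPM, 4.63, 12.9 and 1.27 CPM, and 205 CPM in the female. For both genes heterozygous male 2 lay in the range of the homozygous males, and the female lay beyond the wild-type males on the side away from them. Nr1d1, a repressor of Arntl, had 111, 86.8 and 123 CPM, 153, 103 and 120 CPM, and 73.6, 102 and 11.5 CPM, with 195 CPM in the female. Heterozygous male 2 had 8.68 CPM of Ppargc1a and 15.5 CPM of Ppargc1b. Of 19 clock genes, 6 were higher and 13 lower in homozygous than in wild-type males (median -0.66, and -0.33 without wild-type male 3), and 0 were called. Of these, 5 higher and 9 lower genes had an unadjusted p under 0.05 (14.9% of all genes in either direction), and for 5 on the higher and 9 on the lower side the groups did not overlap (20.8%). Per2 (-2.53, SE 0.58, adjusted p = 0.167), Bhlhe40 (-1.98, SE 0.46, adjusted p = 0.167) and Per3 (-3.65, SE 0.87, adjusted p = 0.178) had the smallest p. The part of the clock genes in the coactivator levels was not tested.

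Markers of macrophages, endothelial cells and stellate cells were mostly higher in homozygous than in wild-type males, and edgeR called 0 of them. All 12 macrophage markers (median log2 fold change 0.63), all 9 endothelial markers (0.56) and 9 of 10 stellate cell markers (0.81) were higher. The groups did not overlap for 1, 2 and 1 of these markers (20.8% of all genes in either direction). An unadjusted p under 0.05 was found for 1, 3 and 4 (14.9% of all genes). Without homozygous male 2, 7 of 10 stellate cell markers were higher. Of 8 hepatocyte markers, 4 were higher (0.02). All 5 erythroid genes, a sign of blood in the tissue, were lower (-1.54). Of the markers tested for bile duct cells 1 of 5 was higher (-0.48), and for lymphocytes and neutrophils 3 of 6 (-0.02). Heterozygous against wild-type males, all 12 macrophage, all 9 endothelial and all 10 stellate cell markers were higher as well (medians 0.32, 0.29 and 0.57). Homozygous against wild-type males, the macrophage, endothelial and stellate medians were 1.33, 1.24 and 1.12 without wild-type male 1. The erythroid direction reversed without this animal, with 4 of 5 genes higher (median 1.1). Without wild-type male 3 the macrophage and endothelial medians were 0.36 and 0.37, and without wild-type male 2 the endothelial median was 0.35. In sums, the 12 macrophage markers summed to 192 to 605 CPM in wild-type, 245 to 567 in heterozygous and 514 to 558 in homozygous males. The 9 endothelial markers summed to 131 to 304, 188 to 273 and 286 to 294 CPM, and the 10 stellate cell markers to 127 to 337, 252 to 401 and 280 to 503 CPM. Erythroid genes summed to 161 to 1980, 215 to 1730 and 262 to 294 CPM. Wild-type male 1 held the highest sum of its group in all 4 of these lists, and its coactivator levels were 12.9 CPM (Ppargc1a) and 20.6 CPM (Ppargc1b). The part of these cells in the members' levels was not tested.

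Genes with longer transcripts tended to be higher in homozygous males. Across 11756 genes the Spearman correlation of the log2 fold change with effective length was 0.242 against wild-type males and 0.245 against heterozygous males, and -0.0177 for heterozygous against wild-type males; genes are not independent replicates. Ppargc1a and Ppargc1b are both long (6197 and 10075 bases), and the median fold change of genes in their length class was 0.1 against wild type. With the length trend removed, an alternative chosen after seeing the data, Ppargc1a was at 0.45 and Ppargc1b at -1.18 against wild type, and Ppargc1a at 1.16 against heterozygotes. The opposite directions of the coactivator genes were the same with and without this step.

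Around the members, 6 lists of pathway genes were counted in homozygous against wild-type males, and edgeR called 0 genes in any of them. Among 20 partners of the coactivators, 12 were higher and 8 lower (median 0.02, all genes 0.0). The groups did not overlap for 2 on the higher and 2 on the lower side (20.8% of all genes in either direction). The partner with the smallest p was Foxo1, a factor of the fasting response, with 25.0 ± 1.85 CPM in wild-type, 27.7 ± 3.37 CPM in heterozygous and 40.9 ± 6.72 CPM in homozygous males. Foxo1 thus separated the homozygous males from the rest (0.71, SE 0.14, adjusted p = 0.147), and the female had 27.6 CPM. Srebf1, the regulator of lipid synthesis bound by PGC-1beta, was lower (369 ± 98.7 against 137 ± 88.9 CPM, -1.43, SE 0.53, adjusted p = 0.277), and the nuclear receptor gene Ppard was higher (5.79 ± 0.19 against 13.3 ± 6.73 CPM, 1.2, SE 0.47, adjusted p = 0.292). Ppard had 9.02, 9.9 and 21.1 CPM in homozygous males and 6.36 CPM in the female. Heterozygous males had 6.88, 18.8 and 5.8 CPM, with male 2 inside the homozygous range.

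Upstream of the coactivators, 11 of 22 genes were higher and 11 lower (median -0.01). The homozygous and wild-type groups did not overlap for 2 on the higher and 1 on the lower side (20.8% of all genes in either direction). Nrip1, whose protein RIP140 is a corepressor that opposes the coactivators, had 6.92, 5.86 and 7.69 CPM (wild type), 7.93, 8.26 and 7.1 CPM (heterozygous) and 11.9, 10.7 and 12.7 CPM (homozygous). All homozygous males lay above all other males (0.78, SE 0.14, adjusted p = 0.147), and the female had 8.4 CPM. The corepressor gene Ncor1 (77.7 ± 8.92 against 92.7 ± 4.41 CPM, 0.26, adjusted p = 0.319) and the glucagon receptor gene Gcgr (332 ± 19.7 against 281 ± 9.15 CPM, -0.23, adjusted p = 0.37) followed. Neither passed the test.

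Of 20 genes for the upkeep of mitochondrial DNA, 9 were higher and 11 lower (median -0.06), led by the nucleoside kinase gene Dguok (11.4 ± 0.208 against 9.9 ± 0.205 CPM, -0.2, adjusted p = 0.412), Endog (-0.27, adjusted p = 0.414) and the exonuclease gene Mgme1 (0.24, adjusted p = 0.463). Of 22 genes for mitochondrial RNA synthesis and processing, 7 were higher and 15 lower (median -0.09). The RNA stability factor gene Slirp was lowest in homozygous males (14.1 ± 0.395, 15.2 ± 0.983 and 11.2 ± 1.55 CPM; -0.33, SE 0.12, adjusted p = 0.278 against wild type). Fastk (-0.33, adjusted p = 0.322) and Hsd17b10 (-0.23, adjusted p = 0.498) had overlapping groups.

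The nuclear genes for respiration, the TCA cycle and import that the regulators act on were mostly lower: 30 of 34, with 4 higher and a median of -0.15. The groups did not overlap for 14 of them on the lower side, where 11.5% of all genes did so, and for 1 on the higher side. An unadjusted p under 0.05 was found for 7 lower and 0 higher genes of the 34 (14.9% of all genes in either direction). Both counts were made with the length trend described above kept. Cox5b of cytochrome oxidase had 151, 160 and 154 CPM in wild-type and 105, 112 and 136 CPM in homozygous males (-0.39, SE 0.12, adjusted p = 0.237). Sdhb of complex II (206 ± 21.3 against 155 ± 18.6 CPM, -0.4, SE 0.13, adjusted p = 0.24) and Ndufb8 of complex I (124 ± 7.68 against 96.5 ± 12.5 CPM, -0.35, SE 0.12, adjusted p = 0.259) followed. These genes are short (median effective length 1229 bases against 2528 for all tested genes), and with the length trend removed the median was -0.1, with 27 of 34 lower. Leaving out 1 animal at a time, the median with the length trend kept lay between -0.2 and -0.13. Heterozygous against wild-type males, 28 of 34 were lower as well (median -0.06), and 0 had groups without overlap. Homozygous against heterozygous males, 29 of 34 were lower (median -0.11), and 21 of 34 with the length trend removed (median -0.02).

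Among 15 known liver targets of PGC-1alpha, 7 were higher and 8 lower (median -0.01). The homozygous and wild-type groups did not overlap for 2 on the higher and 3 on the lower side (20.8% of all genes in either direction). Pdk4, the kinase that turns down pyruvate dehydrogenase, had 3.93, 0.515 and 1.35 CPM in wild-type and 6.91, 8.73 and 10.1 CPM in homozygous males (2.13, SE 0.75, adjusted p = 0.26). The glycogen synthase gene Gys2 (-0.97, SE 0.26, adjusted p = 0.207) and the gluconeogenic gene Fbp1 (-0.54, SE 0.2, adjusted p = 0.278) were lower in all homozygous than in all wild-type males. Heterozygous male 2 lay in or next to the homozygous range for these 3 genes, at 10.3 CPM of Pdk4, 132 CPM of Gys2 and 691 CPM of Fbp1.

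**Figure D5:**
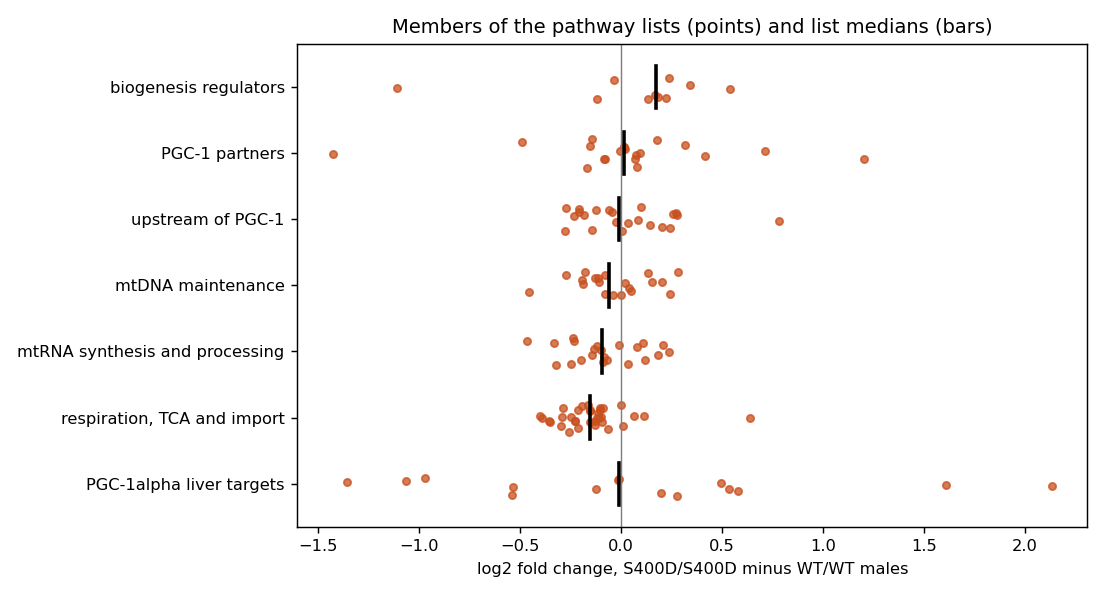
Log2 fold changes of homozygous against wild-type males (x axis) for the members and 6 pathway lists (rows), with 1 point per gene and a bar at each list's median. The respiration, TCA and import genes gather left of 0 (median -0.15), the members have a median of 0.17 with Ppargc1b far to the left (-1.11), and the PGC-1alpha liver targets spread to both sides.

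The genes whose log2 CPM followed each coactivator most closely over the 10 libraries were listed as a description, from 9048 genes that averaged 5 CPM or more. For Ppargc1a they were Gnl3l (Pearson r 0.942, Spearman rho 0.927), Sgms2 (0.934 and 0.891), the HDL receptor gene Scarb1 (0.933 and 0.952), Plod1 (0.929 and 0.903) and Wsb1 (0.922 and 0.842). For Ppargc1b they included Cryl1 (0.947 and 0.903), Ascc1 (0.921 and 0.915), Aspg (0.912 and 0.636) and Pdcd2l (0.903 and 0.745). Without the 2 libraries farthest from the median, r was 0.821 to 0.939 for the genes named with Ppargc1a and 0.6 to 0.947 for those named with Ppargc1b, with Aspg the lowest. Scarb1 showed the order of Ppargc1a, with 194, 177 and 171 CPM (wild type), 147, 162 and 160 CPM (heterozygous) and 231, 224 and 224 CPM (homozygous). These 3 ranges do not overlap either. Scarb1 was chosen for its likeness to Ppargc1a in these same libraries, so the shared order repeats that choice. The libraries fall into genotypes, so these values describe shared differences between groups as well as between animals.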

How the data were processed

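Liver RNA of 10 mice was sequenced, and the authors deposited, for 77712 transcripts per library, expected counts (estimated reads per transcript), FPKM and TPM. HISAT, Bowtie2 and the build GRCm38.p6 are listed, per the submitters' processing notes; no source states tool versions, roles or the counting program. Expected counts were summed by gene and rounded (94.5% of nonzero sums were whole to within 0.05 reads); libraries held 16240441 to 17264289 counts. The 9 males were fitted together with edgeR 4.0.16 (R 4.3.3; quasi-likelihood test, TMM factors, its filter on low counts, genotype as the only term, 12427 genes), and all 10 libraries for the female (12954 genes). The script was tested on simulated data. The FPKM that the authors deposited served in alternative fits, and their TPM for levels between genes and for the ratio of the coactivators, tested by exact permutation. Alternatives were DESeq2 1.42.0, limma-voom and limma on FPKM (limma 3.58.1), other scalings, filters and samples, a replicate block, omission of each animal and, chosen after seeing the data, removal of a length trend.

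The members and the gene lists were chosen with earlier results of these data known. Named were all members, Htra2, the 3 genes per list with the smallest p in homozygous against wild-type males, the 5 genes most like each coactivator among those with at least 5 CPM, and Arntl, Dbp and Nr1d1; 1 gene that this rule chose is not reported here. Samples of a group are numbered replicates in the labels and were taken as separate animals, and their spread may be technical in part, which the p-values cannot show. Animals with the same number did not deviate together across all groups (2 of 9 pairs had a correlation over 0.1). Those 2 pairs were homozygous with heterozygous males (0.195 for number 1, 0.141 for number 2, and 0.0145 for number 3). The numbers were not used as pairs in the main fit, and a fit with them as a block is given below.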

Additional observations from a re-analysis of the deposited data

How the results depend on the processing

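Each difference of a member was recomputed under every alternative, 540 values for 40 results, of which 511 kept the direction and the side of the threshold. DESeq2 called 308 genes (homozygous against wild type), 6 (heterozygous against wild type), 530 (homozygous against heterozygous) and 100 (female), where edgeR called 0, 0, 0 and 10; with it Ppargc1b (-1.12) and Ppargc1a (1.26) passed. A filter of at least 1 CPM in 3 libraries left 5 calls for the female. Omission of 1 animal gave 0 to 18 calls between homozygous and wild-type males (18 without wild-type male 1, 2 without homozygous male 2) and 0 to 6 between homozygous and heterozygous males (6 without homozygous male 2). The cause was not tested.

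Signs changed 27 times in 13 results. Tfb1m in homozygous against wild-type males was 0.02 with log2(FPKM + 1), 0.02 with log2(FPKM + 0.1) and 0.05 with the length trend removed. In heterozygous against wild-type males, Tfb2m was 0.04 and 0.05 and Polg 0.02 and 0.03 on the same FPKM scales. In homozygous against heterozygous males, Tfam was -0.00341 and -0.00342 on these scales, and with the length trend removed Tfam was -0.04, Esrra 0.01 and Tfb1m 0.01. With 1 animal left out, Tfb1m ranged from -0.12 to 0.03 (homozygous against wild type), -0.06 to 0.10 (heterozygous against wild type) and -0.15 to 0.02 (homozygous against heterozygous). Heterozygous against wild type, Polg ranged from -0.07 to 0.04 and Polrmt from -0.09 to 0.08. Homozygous against heterozygous, Esrra ranged from -0.14 to 0.11, Nrf1 from -0.05 to 0.30 and Tfam from -0.04 to 0.08. For the female, Nrf1 ranged from -0.23 to 0.12, Tfb2m from -0.02 to 0.26, Polg from -0.16 to 0.12 and Polrmt from -0.16 to 0.01.

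With the replicate number as a block, edgeR called 0 genes in each comparison of male genotypes (unadjusted p under 0.05 for 1591, 416 and 1849 genes, against 1852, 521 and 2134 without the block), and no member's call changed. The correlation of deviations between same-numbered animals ran from -0.438 to 0.195. Depth limits the low members most: at the lowest count, counting error alone is 11.5% for Ppargc1a, 9.53% for Ppargc1b and 9.76% for Tfb1m.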

Other observations

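Members differed in how the deposited estimates divided their reads among transcripts. Tfb1m has 1 transcript in the table, and the curated transcript of Tfam held 97.1% to 100% of its counts in each library. Gabpa was divided mainly between the curated transcript (14.3% to 71.3% of counts over libraries) and a predicted one (21.9% to 81.0%). Nrf1 had counts on 17 of 19 transcripts, and a predicted one held 43.4% of them over all libraries. It led in every library but that of homozygous male 2, where it held 11.8% and a curated transcript 65.8%. For Polg, 1 of 3 curated transcripts had 321, 9.78 and 169 estimated counts in homozygous males and 210 in the female, against 0, 0 and 105 in wild-type and 0 in each of 3 heterozygous males. This transcript was singled out after its values were seen, and division among such similar transcripts is an estimate.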
